A study of Danio rerio with 8 samples.

Results

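Neurotrophins are a small family of secreted growth factors, and in the larval zebrafish heart 3 of their genes and 6 of their receptor genes were followed here across sorted epicardial cells (EpiCs) and cardiomyocytes (CMs). The members were the ligands *ntf3*, *bdnf* and *ngfa*, the Trk receptors *ntrk2a*, *ntrk2b*, *ntrk3a* and *ntrk3b*, and the p75 receptors *ngfra* and *ngfrb*. The family was chosen because *ntf3* was lower in *tcf21-/-* EpiCs than in those of *tcf21+/+* hearts, so that the difference between EpiCs of the 2 genotypes is described below without a test. Of the 9 genes, 8 have a row in the table of 21286 genes, and *ntrk3b* was not analysed here. A mean value of at least 10 over the 8 libraries, the limit for testing, was reached by 6 members, while *ngfa* and *ntrk2b* stayed below it.

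The hearts were taken at 96 h post fertilization (hpf) from larvae with *TgBAC(tcf21:NLS-EGFP)*, a reporter for EpiCs, which wrap the heart as an outer sheet, and a *myl7*-driven reporter for CMs. EpiCs were sorted as EGFP-positive cells, and those that also carried a low myocardial signal were kept with them. The paper takes these to be ventricular EpiCs, and the other EGFP-positive cells to be likely outflow tract EpiCs with some ventricular ones. CMs were sorted as myocardial reporter-positive, EGFP-negative cells, with the reporter given as *Tg(myl7:mCherry-CAAX)* in the sample labels and as *Tg(myl7:EGFP-HRAS)* in the methods. Both cell types were sorted from *tcf21+/+* larvae, here called wild type, and from *tcf21-/-* larvae, here called mutant, with 2 libraries for each of the 4 groups and each library a pool of cells from many hearts. The mutant larvae carried a frameshift deletion in the gene of this epicardial transcription factor. They came from crosses of heterozygotes, were recognised by their missing head muscles, and were kept only where the epicardium covered much of the ventricle. The wild-type larvae came from crosses of wild-type siblings, so genotype and parentage cannot be told apart.

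A neurotrophin is made as a longer precursor, a proneurotrophin, which convertases such as furin cleave to the mature dimer. Mature neurotrophins act through receptor tyrosine kinases of the Trk family, with brain-derived neurotrophic factor binding TrkB (*ntrk2*) and neurotrophin-3 binding mainly TrkC (*ntrk3*). All of them also bind p75 (*ngfr*), a receptor of the tumour necrosis factor receptor superfamily, and proneurotrophins bind it together with sortilin. In mammals the family is known for the survival and outgrowth of sympathetic and sensory neurons, including those that reach the heart. In mice, loss of neurotrophin-3 or TrkC leads to malformed hearts, and brain-derived neurotrophic factor is needed by the endothelium of coronary vessels. In zebrafish many of these genes have 2 copies, marked a and b.

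Values are normalised counts, that is, the read number of a gene scaled by a single factor for each library, in whole numbers. From the spacing of low values, 1 read was worth 0.776 to 1.573 in these libraries, which gives an estimated 6.44 to 11.4 M reads on genes per library. A value of 0 in a library means that no read was counted. The expected count may still be up to 3 reads, a value of 2.33 to 4.72, and this limit covers counting error only. The values are not divided by gene length, so levels are compared between groups and not between genes. Among the 2 libraries of a group, the log2 values of a gene differed with an SD over genes of 0.903 in wild-type EpiCs, 0.911 in mutant EpiCs, 1.26 in wild-type CMs and 1.05 in mutant CMs. The targeted gene *tcf21* (ENSDARG00000036869) had values of 1600 and 1851 in wild-type and 1636 and 1454 in mutant EpiCs, which does not check the genotype, since a frameshift deletion need not lower the transcript. Its values in CMs were 80 and 28 in wild-type and 5 and 12 in mutant libraries. All 8 epicardial markers examined were called higher, and all 8 cardiomyocyte markers lower, in EpiCs than in CMs of either genotype. Of all genes tested, 41.7% were called in either direction in wild-type and 38.9% in mutant hearts, which holds beside all marker counts given here. The summed cardiomyocyte markers were still 7374 to 12177 in EpiCs, against 84056 to 89842 in CMs. The 6 smooth muscle and pericyte markers summed to 15388 to 18874 in EpiCs and 2357 to 4530 in CMs. Of these 6, 3 were called higher and 0 lower in EpiCs of wild-type hearts, and 4 higher and 0 lower in mutant hearts. Most of the EpiC sum came from *myh11a* and *elnb*, while *acta2* had 2413 and 2820 in wild-type EpiCs and 3685 and 2831 in wild-type CMs. The 9 endothelial and endocardial markers summed to 3884 to 5465 and 1226 to 2155. Of these 9, 4 were called higher and 2 lower in EpiCs of either genotype. The part of such cells in the EpiC values was not tested.

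**Figure D1:**
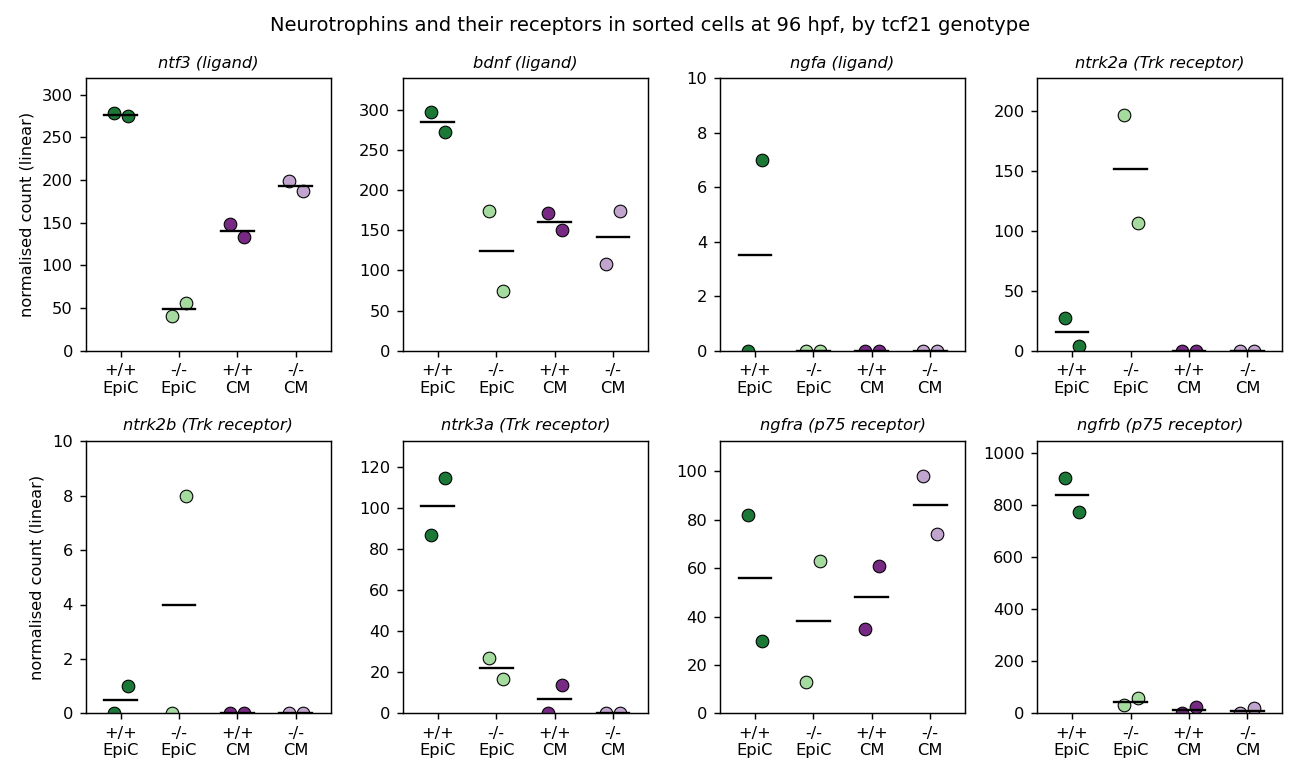
Normalised counts (linear vertical axis from 0, a separate scale for each gene) of the 8 members with a row in the table, by group; each point is 1 library and each line the mean of 2 libraries. *ntf3*, *bdnf*, *ntrk3a* and *ngfrb* are highest in wild-type EpiCs, *ntrk2a* is highest in mutant EpiCs, and *ngfa* and *ntrk2b* are at 0 in all CM libraries.

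Among the ligands, *ntf3*, which encodes neurotrophin-3, was present in all 8 libraries, with close replicates. The gene (ENSDARG00000059043) lies on the minus strand of chromosome 4 at 4397503-4431975 (danRer11), and no other gene in the table overlaps it. Its values were 278 and 275 in wild-type EpiCs, 41 and 56 in mutant EpiCs, 148 and 133 in wild-type CMs, and 199 and 187 in mutant CMs. No 2 groups overlapped, and the order of the means was wild-type EpiCs (276.5±2.1, SD, n=2), mutant CMs (193.0±8.5), wild-type CMs (140.5±10.6) and mutant EpiCs (48.5±10.6). The mean was 5.7-fold lower in mutant than in wild-type EpiCs, a log2 fold change (log2FC) of −2.50 (SE 0.35) on the log2(value + 1) scale, which is the difference the family was chosen on. Each SE given here and below comes from 1 fit of the 8 libraries, in which the 4 groups share the spread of a gene. Beside a difference between EpiCs it therefore also carries the spread of the CM libraries, as for *ntrk3a* and *ngfrb* below. In sorted cells measured in bulk, fewer expressing cells and less RNA per cell cannot be told apart.

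*bdnf*, which encodes brain-derived neurotrophic factor, was also detected in every library. It lies on the minus strand of chromosome 7 at 31924983-31941670 (ENSDARG00000018817). The values were 297 and 272 in wild-type EpiCs, 174 and 74 in mutant EpiCs, 171 and 150 in wild-type CMs, and 108 and 174 in mutant CMs. Wild-type EpiCs stood above all other libraries, and the other 3 groups overlapped one another. The mutant EpiC mean was 2.29-fold below that of wild-type EpiCs (log2FC −1.32, SE 0.46). Mutant EpiC replicate 2 had the lowest value of the 8 libraries, and the log2FC was −0.70 without it. *ngfa* (ENSDARG00000058961, chromosome 23, 4929442-4975517, minus strand), 1 of the 2 copies of the nerve growth factor gene, had a value of 7 in wild-type EpiC replicate 2 and of 0 in the other 7 libraries.

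Of the Trk receptors, *ntrk2a* and *ntrk3a* were detected in EpiCs of both genotypes, and in EpiCs their means differed in opposite directions between the genotypes. *ntrk2a* (ENSDARG00000059897, chromosome 8, 49778486-49865375, plus strand), a TrkB gene, had values of 27 and 4 in wild-type EpiCs and 197 and 107 in mutant EpiCs. It was at 0 in all 4 CM libraries. The groups of EpiCs did not overlap, and the mutant mean was 9.81-fold higher (log2FC 3.63, SE 0.99), although the 2 wild-type libraries were far apart and the log2FC ranged from 2.38 to 4.87 with either of them left out. Some neuronal genes were also higher in the same libraries. *elavl4*, which encodes a neuronal RNA-binding protein, had 223 and 235 in wild-type and 924 and 618 in mutant EpiCs, and *dbh*, which encodes an enzyme of noradrenaline synthesis, had 7 and 3 against 39 and 30. Others were lower, among them *snap25a*, a gene of synaptic vesicle release, at 76 and 108 in wild-type and 61 and 30 in mutant EpiCs. The summed level of the neuron list, of which 16 of 21 genes are in the table, was 5408 to 5805 in wild-type and 5669 to 6331 in mutant EpiCs, and 3175 to 5101 in CMs. Most of that sum came from *hand2* and *tubb5*, which are not restricted to neurons, and *gap43*, *stmn2b* and *phox2ba* were at 0 in both mutant EpiC libraries. The part of neuronal RNA in the *ntrk2a* values was not tested.

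*ntrk3a* (ENSDARG00000077228, chromosome 25, 11795683-12203961, minus strand), a gene for TrkC, the main receptor of neurotrophin-3, had values of 87 and 115 in wild-type EpiCs and 27 and 17 in mutant EpiCs. Of the CM libraries, wild-type replicate 2 had a value of 14 and the other 3 were at 0. Each EpiC library stood above all CM libraries, and the mutant EpiC mean was 4.59-fold below that of wild-type EpiCs (log2FC −2.17, SE 1.20). *ntrk2b* (ENSDARG00000098511, chromosome 5, 55626693-55689656, plus strand), the second TrkB gene, had a value of 1 in wild-type EpiC replicate 2, of 8 in mutant EpiC replicate 2 and of 0 elsewhere. The libraries were not made to keep strand, and *ntrk2b* overlaps the non-coding gene *CU468920.1* on the opposite strand, which had values of 0 to 19.

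The p75 receptors differed from each other in pattern. *ngfrb* (ENSDARG00000089223, chromosome 12, 9949941-10038870, minus strand) had values of 905 and 772 in wild-type EpiCs and of 31 and 59 in mutant EpiCs. In CMs it was at 0 in replicate 1 of both genotypes, at 23 in wild-type replicate 2 and at 19 in mutant replicate 2. Wild-type EpiCs were thus far above every other library, and the mutant EpiC mean of 45.0±19.8 was 18.6-fold below their mean of 838.5±94.0 (SD, n=2; log2FC −4.26, SE 1.64). p75 is also a marker of Schwann cells and neural crest. The list for these cells, with 7 of 9 genes in the table, summed to 1388 to 1404 in wild-type EpiCs, 833 to 948 in mutant EpiCs and 154 to 271 in CMs. *mbpb*, a myelin basic protein gene, made up most of it, with 1255 and 1288 in wild-type and 817 and 743 in mutant EpiCs. The defining gene *sox10* was at 0 in all libraries other than mutant EpiC replicate 1, where it was 33, and *foxd3* was 7 and 4 in wild-type and 0 in both mutant EpiC libraries. *plp1b*, a myelin proteolipid gene, had 125 and 83 in wild-type and 85 and 42 in mutant EpiCs and was at 0 in all CM libraries. Its copy *plp1a* had 17 and 9 in wild-type and 5 and 48 in mutant EpiCs. *mbpa*, the copy of *mbpb*, went the other way between cell types. It had 0 and 0 in wild-type and 7 and 0 in mutant EpiCs, against 61 and 99, and 86 and 115, in CMs. The part of such cells in the *ngfrb* values was not tested.

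*ngfra* (ENSDARG00000088708, chromosome 3, 20156956-20231781, plus strand) was found in all groups and in every library. Its values were 82 and 30 in wild-type EpiCs, 13 and 63 in mutant EpiCs, 35 and 61 in wild-type CMs, and 98 and 74 in mutant CMs. The replicates of a group were up to several-fold apart, and all neighbours in the order of the means overlapped. The EpiC genotypes overlapped too (log2FC −0.76, SE 0.83), and the sign turned to 0.34 without mutant EpiC replicate 1.

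To ask which of these genes distinguish the cell types, EpiCs were compared with CMs within each genotype with limma on log2(value + 1), with Benjamini–Hochberg adjustment over 16077 genes. Genes with an adjusted p under 0.05 and an absolute log2FC of at least 0.59 were called. The *ntf3* values in these comparisons come from the same EpiC libraries as the choice of the family, so they are described without a test and *ntf3* is left out of the counts of members. Both comparisons share CM libraries with the comparison of CM genotypes. Of the other 5 members tested, 3 were called in wild-type hearts, all higher in EpiCs, where 41.7% of all genes tested were called in either direction. In mutant hearts 2 of them were called, both higher in EpiCs, beside 38.9% of all genes. With so few members, nothing is read from their share against that of all genes. The wild-type count includes *ntrk3a*, whose mean over the libraries other than wild-type EpiCs lay just below the limit for testing. The mutant count includes *ntrk2a*, whose mean over the libraries other than mutant EpiCs lay below that limit. These 2 calls are therefore not read as support.

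**Figure D2:**
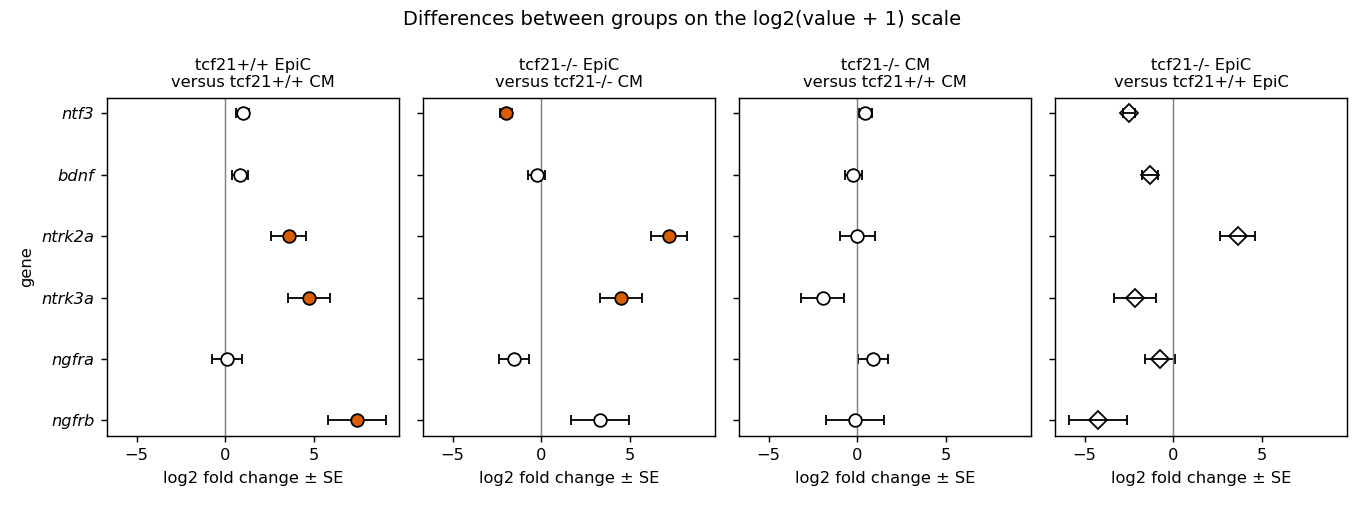
Log2 fold changes of the 6 members tested, on the log2(value + 1) scale, with 1 SE either side, in the 4 comparisons named above each panel; filled circles were called by limma, open circles were not, and diamonds mark the comparison on which the family was chosen and which was not tested. *ntf3* is above 0 in wild-type and below 0 in mutant hearts for EpiCs against CMs, while *ntrk2a* and *ntrk3a* are above 0 in both. Values against CM groups at 0 depend on the added 1, and the filled circle of *ntf3* rests on the EpiC values it was chosen for. The filled circles of *ntrk3a* in wild-type and of *ntrk2a* in mutant hearts rest on the EpiC values through which these genes reached the limit for testing.

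Within wild-type hearts, *ngfrb* was 72.9-fold higher in EpiCs than in CMs (log2FC 7.42, SE 1.64, adjusted p=0.00641). *ntrk3a* was 14.4-fold higher (log2FC 4.71, SE 1.20, adjusted p=0.0126). *ntrk2a* was at least 3.92-fold higher by its EpiC mean, taking 3 reads per CM library as the limit (adjusted p=0.0188). Its EpiC values were 27 and 4, and the lower is near that limit. The call of *ntrk2a* was lost in 6 of 13 alternatives, among them a pseudocount of 5 (log2FC 1.76, adjusted p=0.0588). The CM libraries were unequal, and with either of them left out the log2FC was 5.12 or 9.71 for *ngfrb* and 2.75 or 6.66 for *ntrk3a*. With either EpiC library left out the differences of both genes stayed about as large, at 7.30 and 7.53 for *ngfrb* and 4.90 and 4.51 for *ntrk3a*, although neither passed the threshold then (adjusted p 0.0534 to 0.0746). The log2FC of *ntrk2a* was 3.56 in the full fit, 2.32 without wild-type EpiC replicate 1 (adjusted p=0.0732) and 3.56 without wild-type CM replicate 1 (adjusted p=0.055). The ligands had smaller differences in the same direction, 1.97-fold for *ntf3* (log2FC 0.97, SE 0.35), with no overlap between the groups, and 1.77-fold for *bdnf*, which was not called (log2FC 0.82, SE 0.46, adjusted p=0.185). *ngfra* differed by less than its spread (log2FC 0.10, SE 0.83, adjusted p=0.932).

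Within mutant hearts, the *ntf3* mean was 3.98-fold lower in EpiCs than in CMs (log2FC −1.99, SE 0.35), again with no overlap. *ntrk2a* was at least 47.9-fold higher in EpiCs (adjusted p=0.000598), with a log2FC of 4.91 to 8.19 over the alternatives. *ntrk2a* reached the limit for testing only through these mutant EpiC values, so its call here is not read as support. *ntrk3a* was at least 6.94-fold higher (adjusted p=0.0164), with a log2FC of 4.49. With any 1 of the 4 libraries left out the log2FC was still 4.17 to 4.81, but did not pass the threshold (adjusted p 0.0623 to 0.0927). *ngfrb*, with 4.74-fold more in EpiCs, was not called (log2FC 3.29, SE 1.64, adjusted p=0.148), but was without mutant CM replicate 2 (log2FC 5.45, adjusted p=0.0432). Neither *bdnf* (log2FC −0.27, SE 0.46, adjusted p=0.681) nor *ngfra* (log2FC −1.53, SE 0.83, adjusted p=0.182) was called. Whether the difference between cell types changed with genotype was not tested for any member.

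Between CMs of the 2 genotypes, a comparison that played no part in the choice of the family, limma called 0 of the 6 members, against 0.367% of all genes. None of them had an unadjusted p under 0.05 either, which 1964 of the 16077 genes had. At so low a share of calls nothing is read from 0 called members. *ntrk2a*, at 0 in all CM libraries, could not be called at all. *ntf3* was 1.37-fold higher in mutant CMs without overlap between the groups, but was not called (log2FC 0.46, SE 0.35, adjusted p=0.566). *ngfra* was likewise higher in both mutant libraries (1.79-fold, log2FC 0.87, SE 0.83, adjusted p=0.639). *bdnf* had a log2FC of −0.22 (SE 0.46, adjusted p=0.857), *ntrk3a* of −1.95 (SE 1.20, adjusted p=0.506) and *ngfrb* of −0.13 (SE 1.64, adjusted p=1.0), and *ntrk2a* was at 0 on both sides. The number of genes called in this comparison, 59, changed strongly with a CM library left out. For EpiCs of the 2 genotypes, the comparison on which the family was chosen, 0.193% of all genes were called.

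Of the genes of the family outside the 9 members, 2 of 9 listed were tested. *ngfb*, the second nerve growth factor gene, had values of 29 and 27 in wild-type EpiCs, 59 and 28 in mutant EpiCs, 0 and 17 in wild-type CMs, and 2 and 0 in mutant CMs. It was called higher in EpiCs than in CMs of mutant hearts (adjusted p=0.0226) and not of wild-type hearts (log2FC 2.77, SE 1.32, adjusted p=0.122). *nradd*, which encodes a receptor related to p75 with a death domain, had 140 and 48 in wild-type EpiCs, 198 and 183 in mutant EpiCs, 2 and 15 in wild-type CMs, and 0 and 24 in mutant CMs. It too was called in mutant hearts (log2FC 5.26, SE 1.44, adjusted p=0.0185) and not in wild-type hearts (log2FC 3.58, SE 1.44, adjusted p=0.0755). Both genes were thus higher in every EpiC library than in any CM library. In mutant hearts *ngfb* had a log2FC of 4.59, and without either EpiC library or CM replicate 2 it had 3.80 to 5.11 and was not called (adjusted p 0.0694 to 0.129). *nradd* was not called without either EpiC library, at a log2FC of 5.20 and 5.31, or without CM replicate 1, at 2.94 (adjusted p 0.0911 to 0.1). In wild-type hearts both were called without CM replicate 2 (adjusted p=0.00769 for *ngfb* and 0.0497 for *nradd*).

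The genes that carry or modify neurotrophin signals were taken from 5 further lists. Between CMs of the 2 genotypes 0 genes of any of them were called, beside 0.367% of all genes. At so low a share nothing is read from this. Of the adaptors and effectors of Trk receptors, 22 of 30 listed genes were tested. In wild-type hearts 7 were higher and 2 lower in EpiCs than in CMs, with a median log2FC of 0.59 beside 0.11 over all genes. In mutant hearts 6 were higher and 1 lower, with a median of 0.41 beside 0.09. The shares called, 40.9% and 31.8%, lay near or below the 41.7% and 38.9% of all genes. *shc1*, the adaptor that links activated Trk receptors to Ras signalling, had 2025 and 1917 in wild-type EpiCs against 774 and 798 in CMs (log2FC 1.32, SE 0.15, adjusted p=0.000191) and a log2FC of 1.28 in mutant hearts (adjusted p=0.000249). *gab2*, a docking protein of the same route, was 11.5-fold higher in wild-type EpiCs (adjusted p=0.000334) and 9.49-fold higher in mutant EpiCs (adjusted p=0.000689). *grb2a*, another adaptor, was 2.96-fold (adjusted p=0.00522) and 2.80-fold higher (adjusted p=0.00616). These 3 calls were kept in both genotypes under every alternative.

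Some other adaptors passed the threshold in 1 genotype, and the difference between the genotypes was not tested. *kidins220a*, which encodes a Trk substrate that spans the membrane, had 341 and 276 in wild-type EpiCs, 397 and 219 in mutant EpiCs, 0 and 24 in wild-type CMs, and 25 and 27 in mutant CMs. It was called in wild-type hearts (log2FC 5.94, adjusted p=0.00472), with 3.62 or 8.27 when either CM library was left out. In mutant hearts the log2FC was 3.46 (adjusted p=0.0539), and 5 of 14 alternatives called it (adjusted p 0.00464 to 0.0435). *frs2a*, a docking protein, was higher in wild-type EpiCs (log2FC 1.76, adjusted p=0.0343), as was *rapgef1b*, an exchange factor for the GTPase Rap (log2FC 1.93, adjusted p=0.0126). Without wild-type EpiC replicate 1 the log2FC of *frs2a* and *rapgef1b* was 2.0 and 1.64, and without wild-type CM replicate 1 it was 0.99 and 1.28, and neither gene was called (adjusted p 0.0609 to 0.135). *frs2a* was not called without wild-type EpiC replicate 2 either (log2FC 1.52, adjusted p=0.176). In mutant hearts *frs2a* (log2FC 1.32, adjusted p=0.0969) and *rapgef1b* (log2FC 0.61, adjusted p=0.359) were not called. For *frs2a* a fit of only the 4 libraries compared and library quality weights turned this round, with the mutant difference called (adjusted p=0.0412 and 0.03) and the wild-type one not (adjusted p=0.104 and 0.0528). *plcg2*, a phospholipase C gene, was lower in mutant EpiCs than in mutant CMs (26 and 28 against 155 and 132, log2FC −2.36, SE 0.51, adjusted p=0.00613). This isoform is best known from blood cells, and the 8 leukocyte and blood markers summed to 12 to 33 in wild-type EpiCs, 45 to 404 in mutant EpiCs, 469 to 883 in wild-type CMs and 1787 to 2228 in mutant CMs. Their part in the *plcg2* values was not tested.

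**Figure D3:**
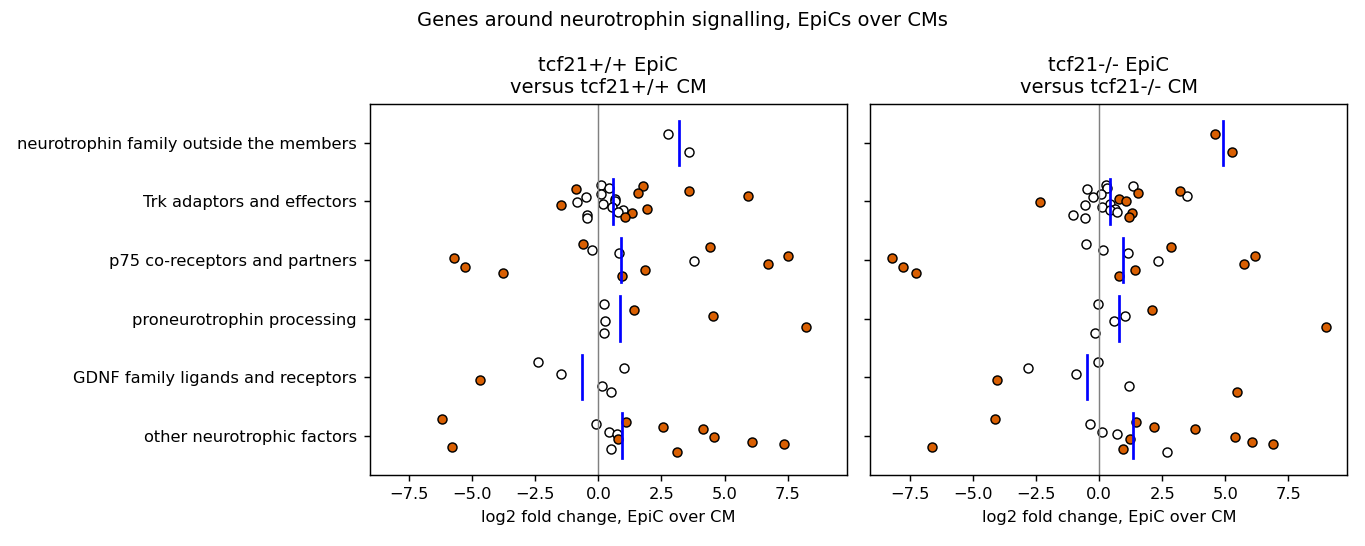
Log2 fold changes of EpiCs over CMs on the log2(value + 1) scale in wild-type (+/+) hearts (left) and mutant hearts (right) for the tested genes of each list; each point is 1 gene, filled points were called by limma, and vertical bars are medians. The p75 co-receptors and partners spread to both sides of 0, with medians of 0.88 and 0.95.

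The partners of p75 were divided between the cell types. All 12 that are in the table, of 21 listed, were tested, and 5 were higher and 4 lower in EpiCs than in CMs of wild-type hearts (median log2FC 0.88), with 5 higher and 3 lower in mutant hearts (median 0.95). These were 75% and 66.7% of the partners, beside 41.7% and 38.9% of all genes. *rtn4r*, the Nogo receptor, which in mammals pairs with p75 to limit axon growth, had 199 and 168 in wild-type EpiCs and 56 and 90 in mutant EpiCs, and was at 0 in every CM library. It was at least 46.4-fold higher in EpiCs in wild-type hearts (adjusted p=8.53e-05) and at least 23.0-fold higher in mutant hearts (adjusted p=0.000255). A gene of the same receptor family had the opposite pattern. *rtn4rl2a* had 26 and 9 in wild-type EpiCs and 1 and 1 in mutant EpiCs against 823 and 912 in wild-type CMs and 683 and 509 in mutant CMs (adjusted p=0.000112 and 2.66e-05).

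Sortilin and its relatives, the receptors that hold proneurotrophins together with p75, were split in the same way. *sorcs2* had 181 and 123 in wild-type EpiCs and 364 and 356 in mutant EpiCs against 0 and 1, and 0 and 46, in the CMs (adjusted p=0.00642 and 0.0148). *sorcs3b* was found mainly in CMs, with 170 and 104 in wild-type and 295 and 160 in mutant libraries against 0 and 11, and 0 and 0, in EpiCs (adjusted p=0.00503 and 0.000737). Of the 2 sortilin genes, *sort1b* was likewise higher in CMs, at 68 and 264 in wild-type and 272 and 175 in mutant libraries, against 2 and 31, and 0 and 1, in EpiCs (adjusted p=0.0281 and 0.00129). *sort1a*, named after its values were seen, was higher in EpiCs, with 3014 and 3247 in wild-type and 2525 and 3205 in mutant libraries against 857 and 898, and 891 and 1292, in CMs (log2FC 1.83 and 1.41, adjusted p=0.000205 and 0.000922). The call of *sort1b* in wild-type hearts (log2FC −3.79) was lost without wild-type EpiC replicate 1 (−2.08, adjusted p=0.182) or wild-type CM replicate 2 (−2.82, adjusted p=0.131). For *sorcs2* the log2FC was 6.73 in wild-type hearts and 6.45 without wild-type EpiC replicate 1, where it was not called (adjusted p=0.0607). In mutant hearts it was 5.72, and 5.70 and 5.73 without either EpiC library, where it was not called (adjusted p 0.0848 and 0.0861), and it was 2.94 or 8.50 with either CM library left out.

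Of the enzymes that process proneurotrophins, 6 of 11 listed were tested, and 3 were higher and 0 lower in EpiCs than in CMs of wild-type hearts (median log2FC 0.84), with 2 higher and 0 lower in mutant hearts (median 0.80). The shares called were 50% and 33.3%, beside 41.7% and 38.9% of all genes. *pcsk6*, a proprotein convertase gene, had 269 and 331 in wild-type EpiCs and 409 and 623 in mutant EpiCs and was at 0 in all CM libraries. This put EpiCs at least 75.9-fold (adjusted p=3.46e-05) and at least 163-fold higher (adjusted p=2.78e-05). *furinb*, a furin gene, was 2.58-fold higher in wild-type EpiCs (adjusted p=0.026) and 3.96-fold higher in mutant EpiCs (adjusted p=0.00416). The wild-type log2FC was 1.41, and without either wild-type EpiC library or wild-type CM replicate 1 it was 1.03 to 1.48 and was not called (adjusted p 0.104 to 0.13). *mmp9*, a secreted metalloprotease that cleaves proneurotrophins outside the cell in mammals, had 41 and 37 in wild-type EpiCs against 2 and 0 in CMs (adjusted p=0.00178), and 38 and 29 against 15 and 17 in mutant hearts (log2FC 1.01, adjusted p=0.341).

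For reference, neurotrophic factors outside the family were examined in the same comparisons. Of the GDNF family ligands and receptors, 6 of 15 listed genes were tested, with 0 higher and 1 lower in EpiCs of wild-type hearts and 1 higher and 1 lower in mutant hearts, 16.7% and 33.3% beside 41.7% and 38.9% of all genes. *gfra3*, which encodes the co-receptor for artemin in mammals, had 3069 and 3303 in wild-type CMs and 3614 and 3310 in mutant CMs, and was 26.0-fold (log2FC −4.69, SE 0.20, adjusted p=6.52e-06) and 16.6-fold lower (adjusted p=8.04e-06) in EpiCs. *ret*, the signalling receptor of that family, had 51 and 37 in mutant EpiCs, 0 and 1 in wild-type EpiCs and 0 in all CM libraries. It was at least 13.9-fold higher in mutant EpiCs than in mutant CMs (adjusted p=0.00133). *ret* reached the limit for testing only through these mutant EpiC values, so its call is not read as support. *ret* is also a gene of sympathetic neurons, and *th*, which encodes the first enzyme of catecholamine synthesis, had 0 and 10 in wild-type and 14 and 14 in mutant EpiCs, while *phox2bb* was 8 in mutant EpiC replicate 1 and 0 in all other libraries. The part of neuronal RNA in the *ret* values was not tested.

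Among the other neurotrophic factors and their receptors, 14 of 16 listed genes were tested, with 8 higher and 2 lower in EpiCs in each genotype (median log2FC 0.93 in wild-type and 1.33 in mutant hearts), or 71.4% beside 41.7% and 38.9% of all genes. *mdkb*, which encodes a heparin-binding growth factor of the midkine family, was 168-fold (log2FC 7.36, adjusted p=3.13e-05) and 114-fold higher in EpiCs (log2FC 6.88, adjusted p=4.41e-05). *mdka*, its duplicate, was 33.3-fold (adjusted p=0.00167) and 61.9-fold higher (adjusted p=0.00191). Its wild-type CM libraries were at 121 and 7, and the wild-type log2FC of 6.09 was 4.13 or 8.06 with either of them left out. *lifrb*, a receptor gene for leukaemia inhibitory factor, was 19.0-fold (adjusted p=0.00113) and 41.9-fold higher (adjusted p=0.000521), with a wild-type log2FC of 3.43 or 5.72 when either CM library, at 38 and 7, was left out. The 2 genes with more in CMs were *ndnf*, which encodes a secreted factor for neurons and vessels and was 51.4-fold (adjusted p=2.56e-05) and 101-fold lower in EpiCs (adjusted p=1.67e-05), and *cdnf*, a neurotrophic factor gene, at 63.6-fold (adjusted p=0.000361) and 17.9-fold lower (adjusted p=0.00334). The wild-type EpiC values of *cdnf* were 10 and 1, and its log2FC of −6.21 was −4.98 or −7.44 with either of them left out. For these 5 lists the medians in both comparisons of cell types were the same with genes at or below 3 reads per library set at the limit of their fold change.

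The pattern of *ntf3* over the 8 libraries was compared with that of all other genes tested by the root mean square difference of log2(value + 1), each gene centred on its own mean. The difference had a median of 1.16 over 16076 genes. The 5 nearest named genes were *adamtsl5* (0.33), *pgfb* (0.33), *GRB14* (0.36), *dok7* (0.40) and *nhsl1b* (0.40), a description over 8 libraries that shares with *ntf3* the difference it was chosen for. *adamtsl5*, which encodes a secreted matrix protein, had 1882 and 1303 in wild-type EpiCs, 294 and 247 in mutant EpiCs, 551 and 933 in wild-type CMs, and 1232 and 976 in mutant CMs. *pgfb*, which encodes a growth factor of the VEGF family, had 31 and 26, 3 and 6, 17 and 18, and 21 and 38 in the same order of groups. In both genes mutant EpiCs were the lowest group, as they were for *GRB14* (170 and 99), *dok7* (57 and 48) and *nhsl1b* (53 and 64). With a pseudocount of 5, 4 of these 5 genes were again among the nearest 5. The member *ngfrb*, which was also lower in mutant than in wild-type EpiCs but near 0 in CMs, was far from *ntf3* by this measure (3.41).

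**Figure D4:**
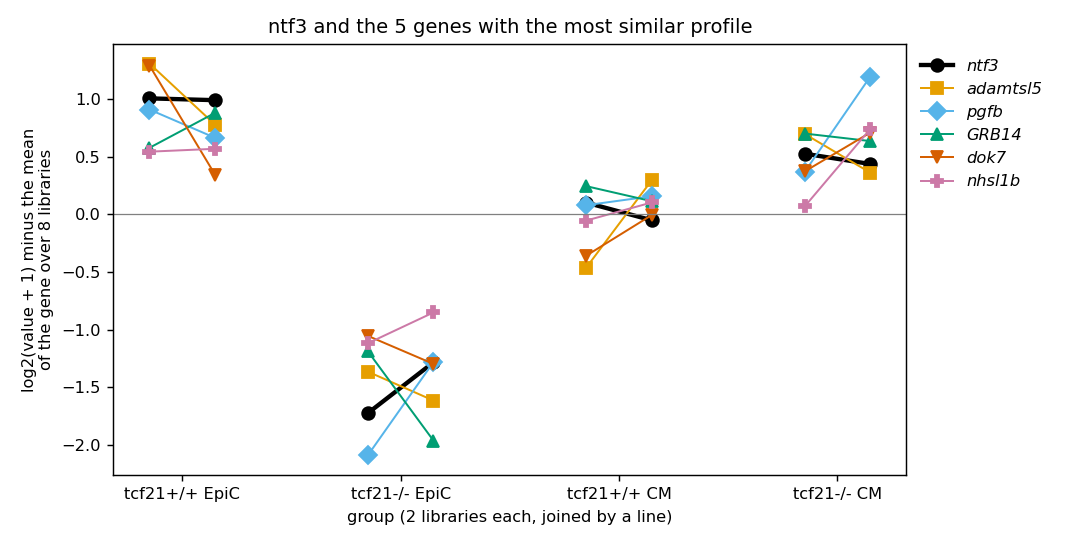
Log2(value + 1) minus the mean of the gene over 8 libraries, for *ntf3* (black circles) and the 5 genes with the smallest root mean square difference from it; lines join the 2 libraries of a group. All 6 genes are lowest in mutant EpiCs, where *ntf3* had values of 41 and 56.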

How the data were processed

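RNA from sorted cells (about 4 ng per library) was amplified with the SMART-Seq v4 kit, which does not mark strand. According to the methods and the submitters' processing notes, the authors trimmed reads (Trimmomatic 0.39), aligned them to danRer11 (STAR 2.7.3a), counted those unique to 1 gene (featureCounts 1.6.5) and normalised with DESeq2 1.26.0. In the deposited signal values, each library's gene counts are scaled by a single factor and given as whole numbers. Whole reads cannot be recovered in the EpiC columns or in mutant CM replicate 2, where 1 read is worth less than 1. A count test was therefore replaced by limma 3.58.1 (R 4.3.3, with lmFit, contrasts.fit, eBayes with trend) on log2(value + 1). The limma model was fitted to 8 libraries together (mean value at least 10, two-sided, no replicate block) and tested on simulated data. P-values measure the spread between libraries, which the methods call biological replicates. Named genes were all members, *tcf21*, up to 4 called genes per list and comparison with the largest change, and the 5 nearest to *ntf3*, clone names left out. Members and lists were chosen with earlier results of these data known. A listed gene is not reported here. Alternatives were other pseudocounts, filters, scalings, weights and leaving out each library. Python 3.11.15 was used for tables and figures.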

Additional observations from a re-analysis of the deposited data

Results flagged for a closer look

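The log2FC of *ntf3* had opposite signs in the 2 cell types and in the 2 genotypes, with no overlap between the libraries compared. Between genotypes, it was −2.50 in EpiCs, with both *tcf21-/-* libraries below both *tcf21+/+* libraries, and 0.46 in CMs, with both *tcf21-/-* libraries above, a difference that did not pass the test of limma (adjusted p=0.566). Between cell types, it was 0.97 in *tcf21+/+* hearts, with both EpiC libraries above both CM libraries, and −1.99 in *tcf21-/-* hearts, with both below. Both differences between cell types are described without a test. Whether the difference changed with cell type or genotype was not tested, since it rests on the EpiC values for which *ntf3* was chosen.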

How the results depend on the processing

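Each group had 2 libraries. Of 233 alternative values for the members in tested comparisons, 206 kept their direction and their side of the threshold. The 206 include differences that were not called in the full fit and stayed so, so their number does not measure how firm the calls were. Another 15 lost a call, all of them values of *ntrk2a*, *ntrk3a* or *ngfrb*. The 233 also include *ntf3* in the comparisons of EpiCs with CMs, which rest on the EpiC values it was chosen for. For *ntf3* no count of kept calls is read, since those calls are not used as tests. Its log2FC over the alternatives was 0.69 to 1.1 in *tcf21+/+* hearts and −2.39 to −1.77 in *tcf21-/-* hearts. Of the 3 members called in *tcf21+/+* hearts, 1 was called with a mean value of at least 50, for which *ntrk2a* and *ntrk3a* are too low, 1 in a fit of only the 4 libraries compared, and 0 to 3 with a library left out. In *tcf21-/-* hearts the 2 members called other than *ntf3* were the same *ntrk2a* and *ntrk3a*, which are too low to be tested with that filter. For *ntrk2a* in *tcf21+/+* hearts the adjusted p of limma reached 0.169 with quantile normalization. The 59 genes called between CM genotypes became 21 with a pseudocount of 5, 22 without a filter, 33 at the same total per library, 0 with only the 4 libraries or with library quality weights, and 13 to 1358 with a library left out, and the cause was not tested.

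The number of genes called ranged from 4808 to 7494 in *tcf21+/+* and from 4336 to 7246 in *tcf21-/-* hearts. Directions turned only for values that were not called. *ngfra* had a log2FC of −0.58 in *tcf21+/+* hearts with quantile normalization and −0.61 to 0.81 with a library left out. *bdnf* had −0.88 to 0.34 in *tcf21-/-* hearts and −0.56 to 0.12 between CMs with a library left out. Between CMs, leaving out a library gave −2.42 to 2.16 for *ngfrb*, −3.38 to 0.79 for *ngfb* and −2.79 to 1.85 for *nradd*, which had 0.03 with a pseudocount of 5. The untested log2FC between EpiC genotypes, in alternatives chosen after seeing the data, ranged from −2.72 to −2.28 for *ntf3*, −1.93 to −0.70 for *bdnf*, 2.38 to 4.87 for *ntrk2a*, −2.49 to −1.85 for *ntrk3a*, −1.86 to 0.34 for *ngfra* and −4.71 to −3.80 for *ngfrb*.

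The deviations of libraries with the same replicate number had correlations of −0.081 to 0.067 over genes. The labels do not say whether these libraries were paired, and weak correlations cannot show that they were not. In the methods both cell types were sorted from dissociated hearts with both reporters, over several sessions, and it is not said which libraries share a session. With a replicate block, 6527, 6125 and 1 genes were called in the 3 tested comparisons, and 3, 3 and 0 members. That block gives both genotypes the same replicate effect, so it does not model a pairing of EpiCs and CMs within each genotype. The 3 members of *tcf21-/-* hearts include *ntf3*, with the EpiC values it was chosen for.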
